A study of Homo sapiens with 8 samples.

Results

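The accessible regions of chromosome 8 were examined arm by arm in KOSC-2 and HSC-3, 2 established lines of oral squamous cell carcinoma assayed by ATAC-seq, a method that uses the Tn5 transposase to tag open DNA with sequencing adapters. All peaks on chromosome 8 in the 8 deposited lists were taken and merged wherever they shared at least 1 bp. This gave 3783 regions of 80588 on chromosomes 1 to 22 and X. Regions starting below 43.8 Mb on build hg19 were assigned to the short arm, 8p (1095 regions), and those starting at or above 46.8 Mb to the long arm, 8q (2688 regions). None lay between these limits. The labels describe KOSC-2 as radiosensitive and HSC-3 as radioresistant, and cells of each line were frozen 24 hours after 0 or 8 Gy, with 2 libraries per line and dose. Each class is represented by a single line. Separate cultures for the libraries of a group are not stated, and the p-values below therefore cover only the variation among these 8 libraries, which may be technical. The identity of the cells was not checked against marker genes, because gene positions on hg19 are not used here.

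In oral carcinoma, loss of 8p and gain of 8q are common chromosome changes. The long arm carries MYC, which encodes a transcription factor that drives growth and is often amplified in carcinomas. The short arm carries several genes studied as tumour suppressors. An ATAC-seq peak is called where insertions exceed the local background, so the number of peaks in a stretch of chromosome depends both on how open its sites are and on how many copies of it each cell holds. These 2 quantities cannot be told apart in these data.

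The lists held 38234, 45471, 51693 and 42407 peaks in KOSC-2, listed as unirradiated replicates 1 and 2 followed by irradiated replicates 1 and 2, and 41926, 23490, 22504 and 43089 in HSC-3, in the same order. HSC-3 0 Gy replicate 2 and HSC-3 8 Gy replicate 1 were thus the 2 short lists. Depth, recovered as background reads per 10 kb, ranged from 20.2 to 64.8, and no summit with fewer than 5 to 9 reads was called, depending on the library, so weaker sites were not detectable. Enrichment, the median pileup at regions called in all libraries over the genome-wide background, was lowest in HSC-3 8 Gy replicate 1 (21.9), KOSC-2 0 Gy replicate 1 (25.7) and HSC-3 0 Gy replicate 2 (34.7), against 49.6 to 67.3 in the others. Arm results and counts of regions called in 1 line only that rest on these libraries are given with and without them. Regions called at 1 dose only are given with all 8 libraries. So are the calls by background and by rank in bins and in single regions.

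The long arm took a larger share of all peaks in HSC-3 than in KOSC-2. In KOSC-2 it held 3.15, 3.10, 3.13 and 3.05% of each list, with libraries in the order above. In HSC-3 it held 3.60, 3.82, 3.74 and 3.62%. Every HSC-3 library lay above every KOSC-2 library, and the 2 short lists were the highest. The mean was 3.11 ± 0.0449% (SD, n = 4) in KOSC-2 and 3.70 ± 0.103% (SD, n = 4) in HSC-3, a 1.19-fold difference (log2 0.25, SE 0.040). It passed the threshold in the limma fit over 41 chromosome arms (adjusted p = 5.62e-05) and gave the smallest value an exact two-sided permutation test of 4 against 4 libraries allows (p = 0.0286, 70 assignments). In that fit 22% of arms were higher in HSC-3 and 29.3% lower, and 8q had the 8th highest difference.

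The short arm held 1.41, 1.33, 1.35 and 1.38% of the peaks in KOSC-2. In HSC-3 its share was 1.33, 1.10, 1.09 and 1.36%. The 2 long HSC-3 lists lay within the KOSC-2 range and the 2 short ones below it, so the groups overlapped. The mean was 1.37 ± 0.0362% in KOSC-2 and 1.22 ± 0.147% in HSC-3 (SD, n = 4 each), and the log2 difference of -0.17 (SE 0.087) did not pass the test (limma adjusted p = 0.108, exact permutation p = 0.143). The outcome depended on which peaks and libraries were counted. With all lists limited to their strongest 22504 peaks the log2 difference was -0.16 (SE 0.056) and passed (limma adjusted p = 0.0246). Without a long HSC-3 list it was -0.24 (0 Gy replicate 1 left out) or -0.25 (8 Gy replicate 2 left out). Without a short list it was -0.10 (0 Gy replicate 2 left out) or -0.09 (8 Gy replicate 1 left out). It was -0.02 without both short lists, and 0.0026 without the 3 libraries of lowest enrichment.

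**Figure D1:**
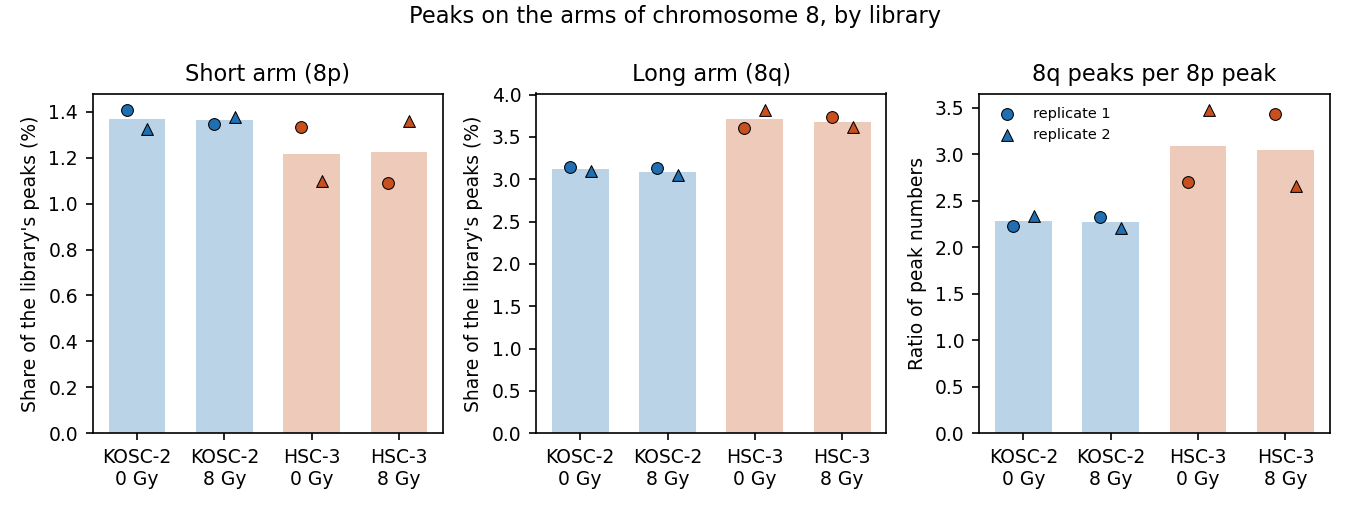
Share of each library's peaks on 8p (left, percent) and 8q (middle, percent), and the number of 8q peaks per 8p peak (right), for the 4 groups of line and dose. Points are libraries and bars are group means of 2 libraries. The HSC-3 libraries sit above all KOSC-2 libraries for 8q (3.60 to 3.82% against 3.05 to 3.15%) and for the ratio (2.66 to 3.48 against 2.21 to 2.33), and overlap them for 8p.

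The balance of the arms within a library is counted without the peaks of other chromosomes. It did vary with the number of peaks kept in the list. KOSC-2 lists held 539, 603, 697 and 584 peaks on 8p and 1204, 1408, 1618 and 1292 on 8q. HSC-3 lists held 559, 258, 245 and 586 on 8p and 1511, 898, 841 and 1561 on 8q. The ratio of 8q to 8p peaks was therefore 2.23, 2.33, 2.32 and 2.21 in KOSC-2 and 2.70, 3.48, 3.43 and 2.66 in HSC-3. All HSC-3 ratios exceeded all KOSC-2 ratios, with the 2 short lists well above the other HSC-3 lists. The means of 2.28 ± 0.0616 and 3.07 ± 0.447 (SD, n = 4 each) differed by 1.34 times (log2 0.42, exact two-sided permutation p = 0.0286). Without any 1 KOSC-2 library the call was lost at a log2 difference of 0.41 to 0.43 (exact permutation p = 0.0571, where 3 against 4 libraries could reach 0.0286), still without overlap. Without the 2 short lists the means were 2.28 and 2.68 (log2 0.24), still without overlap, at the smallest p that 4 against 2 libraries allow (exact permutation p = 0.0667).

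The difference between the lines in this ratio was larger among strong peaks. Among the 2000 peaks with the highest −log10 p in each list, 8p held 21, 14, 16 and 14 peaks in KOSC-2 and 11, 8, 8 and 13 in HSC-3. On 8q the same lists held 82, 75, 65 and 71 peaks in KOSC-2 and 97, 103, 101 and 95 in HSC-3. The lines did not overlap on either arm at this depth of the list: HSC-3 had fewer strong peaks on 8p and more on 8q. On 8p they were close, with at least 14 peaks in KOSC-2 and at most 13 in HSC-3. Among the strongest 3000 peaks the lines overlapped on 8p, with 29, 23, 24 and 19 in KOSC-2 and 20, 13, 15 and 21 in HSC-3. They were apart on 8p among the strongest 5000 (45 to 53 against 29 to 40). They overlapped on 8p among the strongest 1000 (5 to 6 against 1 to 6), 7000 (68 to 76 against 53 to 72) and 8000 (79 to 92 against 65 to 81). Among the strongest 4000 they met at 31. Among the strongest 2000 the mean ratio of 8q to 8p was 4.60 ± 0.723 in KOSC-2 and 10.4 ± 2.78 in HSC-3 (SD, n = 4 each). This 2.22-fold difference rests on 8 to 21 peaks per library on 8p. It was 3.11 against 5.94 among the strongest 5000 peaks, 2.66 against 4.34 among the strongest 10000, and 2.44 against 3.41 among the strongest 20000. In this ratio the lines were without overlap at all 4 list lengths (exact two-sided permutation p = 0.0286 at each). These lengths were chosen after the data were seen and are nested in each other. Counts and ratios of other chromosomes at these lengths were not computed.

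**Figure D2:**
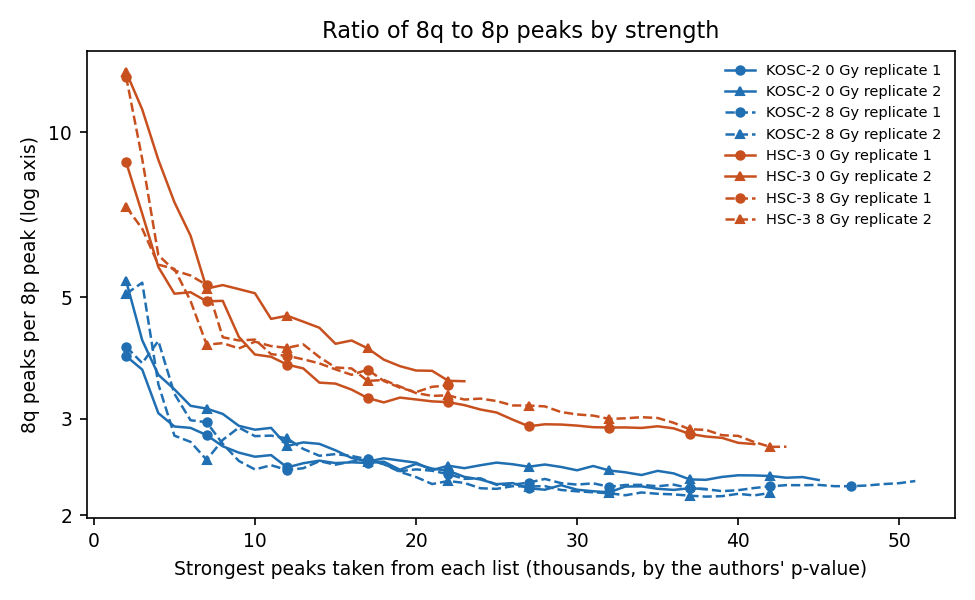
Number of 8q peaks per 8p peak (vertical log axis) among the strongest peaks of each library, from the strongest 2000 to the whole list (horizontal axis, number of peaks kept, in units of 1000), with 1 line per library. The HSC-3 libraries run above the KOSC-2 libraries at 2000, 5000, 10000 and 20000 peaks, and the gap between the lines' means narrows from 10.4 against 4.60 to 3.41 against 2.44.

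Along the chromosome, the higher share of 8q in HSC-3 came from a block in its middle and a second stretch near its end. Of the 15 bins of 10 Mb on chromosome 8, 6 were higher in HSC-3 and 2 lower in the limma fit over 301 bins of the genome, where 22.9% of bins were higher and 22.6% lower. The higher bins were the 5 from 60 to 110 Mb, all on 8q, and the bin from 130 to 140 Mb. The lower bins were those from 20 to 30 Mb and from 30 to 40 Mb, both on 8p. The same 6 and 2 bins had no overlap between the lines, which 24.3% of all bins met upwards and 22.3% downwards.

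The bin from 90 to 100 Mb held 0.298, 0.308, 0.317 and 0.302% of the peaks in KOSC-2 and 0.401, 0.447, 0.458 and 0.436% in HSC-3. The lines were far apart there, at 1.42-fold (log2 0.51, SE 0.066, limma adjusted p = 1.02e-04). The bin from 80 to 90 Mb held 0.191, 0.198, 0.199 and 0.191% in KOSC-2 and 0.284, 0.294, 0.280 and 0.253% in HSC-3. It is one of the bins with fewer peaks on 8q, and also differed by 1.42-fold (log2 0.51, SE 0.085, limma adjusted p = 3.95e-04). The bin from 60 to 70 Mb held 0.214, 0.220, 0.224 and 0.212% in KOSC-2 and 0.301, 0.307, 0.32 and 0.299% in HSC-3, a 1.41-fold difference (limma adjusted p = 2.83e-04). The other 3 higher bins differed by 1.25 to 1.31 times, from 70 to 80 Mb (log2 0.39, limma adjusted p = 0.00889), from 100 to 110 Mb (log2 0.32, limma adjusted p = 0.00118) and from 130 to 140 Mb (log2 0.39, limma adjusted p = 7.57e-04).

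On 8p the bin from 20 to 30 Mb held 0.515, 0.477, 0.462 and 0.490% of the peaks in KOSC-2 and 0.427, 0.353, 0.342 and 0.434% in HSC-3. This bin, the one with the most peaks on 8p, was lower in HSC-3 by a fold of 0.798 (log2 -0.33, SE 0.085, limma adjusted p = 0.00696), and it was called with each library left out in turn. The next bin, from 30 to 40 Mb, held 0.272, 0.279, 0.286 and 0.299% in KOSC-2 and 0.265, 0.213, 0.218 and 0.248% in HSC-3, a log2 difference of -0.27 (limma adjusted p = 0.0265). The lines were close there: the highest HSC-3 value lay just under the lowest KOSC-2 value. Its call was lost with lists of equal length (log2 -0.10, limma adjusted p = 0.287) and without the 2 short lists (log2 -0.15, limma adjusted p = 0.212). It was also lost without any 1 KOSC-2 library (log2 -0.29 to -0.25, limma adjusted p = 0.0506 to 0.107), without HSC-3 0 Gy replicate 2 (limma adjusted p = 0.115) and without HSC-3 8 Gy replicate 1 (limma adjusted p = 0.0837).

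At the tip of 8p the higher mean was that of HSC-3. From 0 to 10 Mb the mean share was 0.177% in KOSC-2 and 0.204% in HSC-3 (log2 0.22, limma adjusted p = 0.157), and without the 3 libraries of lowest enrichment this bin was higher in HSC-3 (log2 0.43, limma adjusted p = 1.10e-04). From 10 to 20 Mb the log2 difference was -0.13 (limma adjusted p = 0.409). The bin that holds the centromere, from 40 to 50 Mb, and the next one on 8q, from 50 to 60 Mb, gave 0.04 each (limma adjusted p = 0.752 and 0.695). The 20 Mb from 110 to 130 Mb interrupted the higher stretch of 8q. The bin from 110 to 120 Mb held 0.230 ± 0.0161% in KOSC-2 and 0.214 ± 0.00661% in HSC-3 (SD, n = 4 each), a log2 difference of -0.10 (limma adjusted p = 0.367) that turned to 0.21 with lists of equal length (limma adjusted p = 0.0982). The bin from 120 to 130 Mb, which held the largest share of peaks on the chromosome, gave 0.529 ± 0.0151% and 0.555 ± 0.0439% (SD, n = 4 each; limma adjusted p = 0.403). The last bin, from 140 Mb to the end, gave a log2 difference of 0.13 (limma adjusted p = 0.114).

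**Figure D3:**
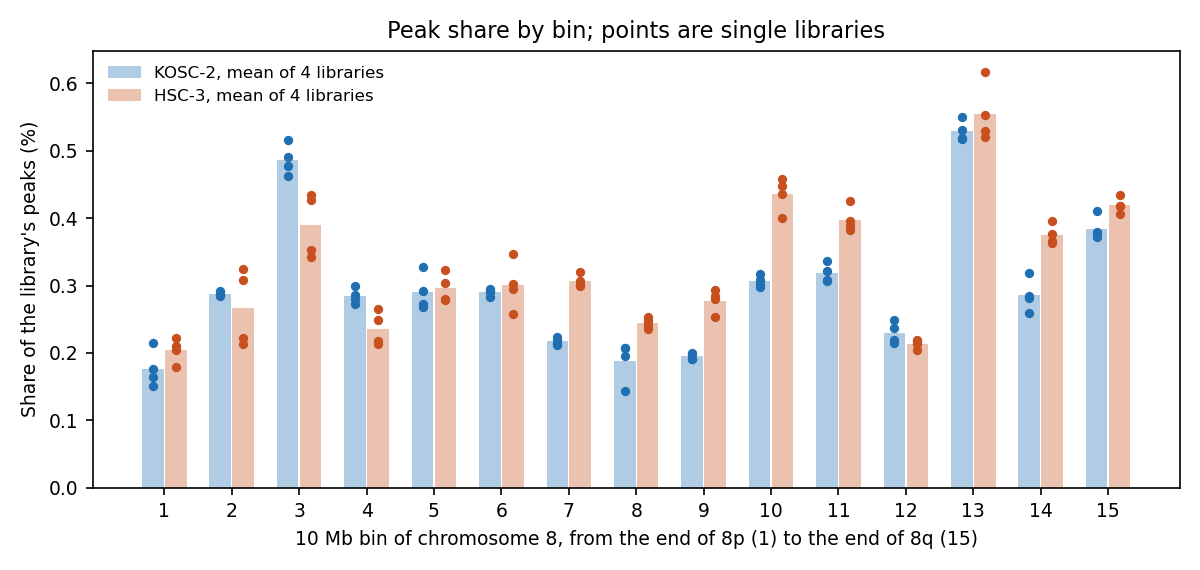
Share of each library's peaks (vertical axis, percent) in the 15 bins of 10 Mb along chromosome 8 (horizontal axis, bin number, bin 1 from 0 to 10 Mb). Points are libraries, with 4 per line, and bars are their means. Bins 7 to 11 and 14 show the HSC-3 points above all KOSC-2 points, and bins 3 and 4 show them below.

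The background around peaks gave a readout that does not count peaks, although the window around a peak holds the peak's own reads. For each peak the local background, in reads per 10 kb, was recovered from the deposited fold and p-value and taken relative to the median peak of its library. On 8q it was 0.882 ± 0.0276 in KOSC-2 and 0.987 ± 0.0203 in HSC-3 (SD, n = 4 each), a log2 difference of 0.16 (SE 0.038) without overlap (limma adjusted p = 0.00343). On 8p it was 0.864 and 0.856 (log2 -0.01, SE 0.041, limma adjusted p = 0.810). Over all arms, 26.8% were higher in HSC-3 and 22% lower. Of the 15 bins, 4 were higher in HSC-3 and 0 lower in the limma fit, with 17.9% and 16.3% over the genome. None of the 15 was lower at an unadjusted p below 0.05 either. The 4 were the bins from 60 to 80 Mb and from 90 to 110 Mb, and their log2 differences were 0.37, 0.37, 0.32 and 0.34. The 8q difference fell short of the threshold without the 2 short lists (log2 0.15, limma adjusted p = 0.0550) and among peaks below the 50th percentile of their list (log2 0.06, limma adjusted p = 0.502). With the summit pileup taken off it was 0.135 (limma adjusted p = 0.0224). At regions called in all 8 libraries it was 0.233 (limma adjusted p = 0.00387), so it was larger there than among the weaker peaks. The 8p difference was 0.05 among the weaker peaks (limma adjusted p = 0.547), close to that of 8q. It was -0.11 at regions called in all 8 libraries (limma adjusted p = 0.0920).

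Regions called in every library allow the same sites to be compared in both lines. There were 129 such regions on 8p (11.8% of the arm's regions) and 463 on 8q (17.2%), against 15.9% of all merged regions. Within each library the 12827 common regions of the genome were ranked by −log10 p, from 0 for the weakest to 100 for the strongest, in a comparison added after the data were seen. The mean rank of the common regions of 8q was 45.6 ± 0.774 in KOSC-2 and 54.9 ± 0.971 in HSC-3 (SD, n = 4 each), 9.26 points higher in HSC-3 (SE 0.865, limma adjusted p = 5.53e-05). Those of 8p stood at 49.8 ± 1.56 and 44.7 ± 1.09, a difference of -5.10 points (SE 1.38, limma adjusted p = 0.0115). The arms thus stood in opposite order in the lines, with 8p above 8q in KOSC-2 and below it in HSC-3, and neither arm overlapped between lines. Many arms differed by this readout, 31.7% of them higher in HSC-3 and 43.9% lower. The 8p difference fell short of the threshold without KOSC-2 8 Gy replicate 1 (-4.70 points, limma adjusted p = 0.0578), without the 2 short lists (-4.30 points, limma adjusted p = 0.0786) and without the 3 libraries of lowest enrichment (-3.43 points, limma adjusted p = 0.0501).

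By bin, common regions ranked higher in HSC-3 in 8 of the 15 bins and lower in 3, where 28.5% and 30.8% of 295 bins of the genome did so. The 8 were the bins from 50 to 120 Mb and from 130 to 140 Mb, and the 3 were those from 10 to 30 Mb and the bin from 40 to 50 Mb, which holds the centromere. The bin from 110 to 120 Mb, where the share of peaks did not pass the test, thus had higher-ranking common regions in HSC-3. The 4 bins with higher background were also higher by share and by rank, which 35 of 301 bins of the genome were.

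**Figure D4:**
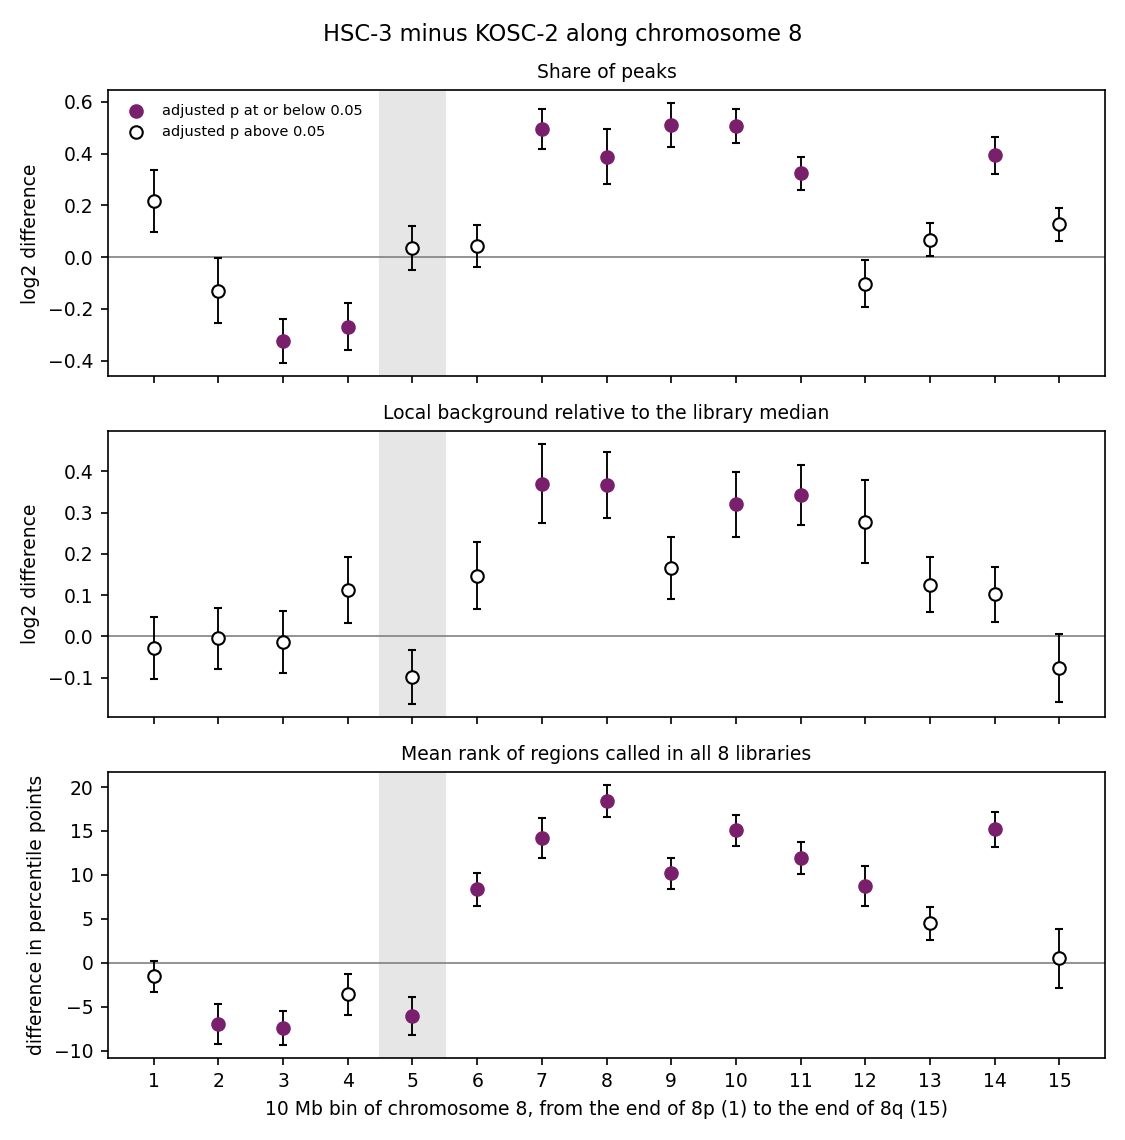
Log2 difference between HSC-3 and KOSC-2 in the share of peaks, log2 difference in relative background, and difference in mean rank of common regions (points of 100), in the 15 bins of 10 Mb of chromosome 8. Points are differences with standard errors from limma, filled where the adjusted p was at or below 0.05. The bins from 60 to 80 Mb and from 90 to 110 Mb (numbers 7, 8, 10 and 11) are filled and above 0 in all 3 readouts, while the bin from 20 to 30 Mb (number 3) is filled and below 0 in share and rank, with a background near 0. The shaded bin holds the centromere.

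Single common regions moved mostly one way on 8q. Of its 463 common regions, 61 ranked higher in HSC-3 (13.2%) and 5 lower (1.08%), against 7.34% and 5.89% of all common regions, and the median difference was 7.89 points against -0.52 over the genome. On 8p, 5 of 129 ranked higher (3.88%) and 3 lower (2.33%), with a median of -5.64 points, so the lower mean of this arm was spread over regions that did not pass the test singly. The region with the largest difference, at 134902469 to 134903444, ranked 0.70, 25.7, 32.5 and 16.5 in KOSC-2 and 96.7, 87.7, 96.3 and 88.9 in HSC-3 (73.6 points, limma adjusted p = 0.00599). It stood among the weaker common regions in KOSC-2 and among the stronger ones in HSC-3. The region at 133772666 to 133773225 ranked between 5.53 and 7.72 in KOSC-2 and between 76.2 and 80.9 in HSC-3, with little spread in either line (71.7 points, limma adjusted p = 0.00599). A neighbour at 133715721 to 133716318 differed by 62.7 points, and a region at 61367937 to 61368685 by 65.7 points.

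The 5 common regions of 8q that ranked lower in HSC-3 lay mainly near the centromere, 4 of them between 48172933 and 53380231. The region at 49426636 to 49427831 ranked 84.6, 95.2, 96.0 and 91.2 in KOSC-2 and 56.4, 63.6, 65.1 and 38 in HSC-3 (-36.0 points, limma adjusted p = 0.0134). The region at 48172933 to 48174106, among the strongest of the genome in KOSC-2 with ranks of 99.1 to 99.9, ranked 87.9 to 93.8 in HSC-3. On 8p the regions at 28269098 to 28270062 and at 23386108 to 23387266, both in the bin from 20 to 30 Mb, differed by -37.5 and -37.0 points. At the tip of 8p, 3 common regions from 0 to 10 Mb ranked higher in HSC-3 and 0 ranked lower. They began at 1942037 (41.3 points), 436550 (38.8 points) and 637524 (25.8 points). The region at 436550 to 437084 ranked 1.23 to 11.2 in KOSC-2 and 32.6 to 54.3 in HSC-3. The 24 common regions from 0 to 10 Mb had a median difference of -4.71 points, and their mean rank did not pass the test (50.8 in KOSC-2, 49.2 in HSC-3, limma adjusted p = 0.482). The regions named here were chosen after their values were seen.

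The regions called in all 8 libraries were ordered by mean percentile on each arm, so that both lines share them was set by this choice. Among those of 8q the first, at 57123667 to 57124875, stood at the 99.6th percentile or above in each of the 8 lists. The next 4 began at 103250773, 135843974, 110551584 and 124428386, all at or above the 98.9th percentile in each list. The strongest shared region of 8p, at 25315783 to 25316932, lay between the 97.9th and the 99.7th percentile. The next 4 of 8p began at 41386265, 28747287, 42009982 and 1703564 and had mean percentiles of 96.8, 96.0, 95.9 and 95.5. Regions were about as dense on the arms, at 25 per Mb on 8p and 27 per Mb on 8q, whereas regions called in all libraries stood at 2.95 per Mb on 8p and 4.65 per Mb on 8q.

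Regions called in all libraries of one line and in none of the other were counted as line-only. On 8p there were 24 KOSC-2-only regions (2.19%) and 2 HSC-3-only regions (0.183%). On 8q there were 48 (1.79%) and 19 (0.707%). Over the genome 2.07% of regions were KOSC-2-only and 0.3% HSC-3-only, so KOSC-2-only regions on both arms were near the background share. The counts depended on the lists: with lists of equal length 8p had 8 KOSC-2-only regions (1.46%) and 5 HSC-3-only ones (0.912%), and 8q had 20 (1.35%) and 36 (2.43%). Over the genome the shares were then 1.68% and 1.19%. Without the 2 short lists, chromosome 8 had 149 HSC-3-only regions (4.07%) and 78 KOSC-2-only ones (2.13%), but HSC-3-only regions also rose over the genome, from 242 to 2410 (3.09%), beside 2.37% KOSC-2-only. Without KOSC-2 0 Gy replicate 1, the KOSC-2-only count rose from 72 to 157 on the whole chromosome (4.35%, against 5.55% over the genome), and without HSC-3 0 Gy replicate 1 to 117 (3.24% against 3.43%). Without HSC-3 0 Gy replicate 2 the HSC-3-only count rose from 21 to 41 (1.10% against 0.611%) and without HSC-3 8 Gy replicate 1 to 47 (1.26% against 0.763%). It was 32 without KOSC-2 8 Gy replicate 1 (0.904% against 0.440%).

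Several of the strongest KOSC-2-only regions lay on 8q near the centromere. They were at 50968758 to 50969921, 51101210 to 51101796 and 51095412 to 51096480, with mean percentiles of 89.1, 88.6 and 87.6 in the KOSC-2 lists. The next were at 122157579 to 122158356 (83.4) and 47528496 to 47529515 (78.9). The strongest HSC-3-only region of 8q, at 117173868 to 117174462, had a mean percentile of 82.4 in the HSC-3 lists and lay in the bin from 110 to 120 Mb, whose share did not pass the test. The next, at 143305930 to 143306532 (70.6) and 133333597 to 133334204 (65.0), spanned wide ranges over the HSC-3 lists, from 18.7 to 89.2 and from 13.1 to 90.9. The HSC-3-only regions at 139842984 to 139843998 and 55133662 to 55134198 each had a mean percentile of 60.0.

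On 8p the strongest KOSC-2-only regions were at 37278516 to 37279365 and 32785249 to 32785907, with mean percentiles of 74.7 and 69.8. The next began at 26499153, 10785927 and 24812536, with 55.7, 54.7 and 54.2. Both HSC-3-only regions of 8p lay at its distal part, at 10873540 to 10874373 (63.8) and 10573610 to 10574135 (35.9). Between them, at 10785927, stood a KOSC-2-only region, so neighbouring sites there went opposite ways.

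Line-only regions stood next to each other in a few places, looking only at regions that at least 1 line called in every library. The longest run on 8q was of 4 KOSC-2-only regions from 115551575 to 116231565, a span of 680.0 kb. All 11 merged regions inside it drew 29 calls in KOSC-2 lists and 1 in HSC-3 lists. In this run and those below, the totals include the line-only regions, whose calls of 4 against 0 were fixed by definition. The longest HSC-3-only run had 2 regions, from 139842984 to 139965576, with 7 merged regions that drew 2 calls in KOSC-2 lists and 14 in HSC-3 lists. On 8p there were 4 KOSC-2-only runs of 2 regions, of which that from 37728884 to 37749740 was the shortest, with 10 calls against 0. The others drew 18 calls in KOSC-2 lists against 5 in HSC-3 lists, 14 against 2 and 11 against 2.

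**Figure D5:**
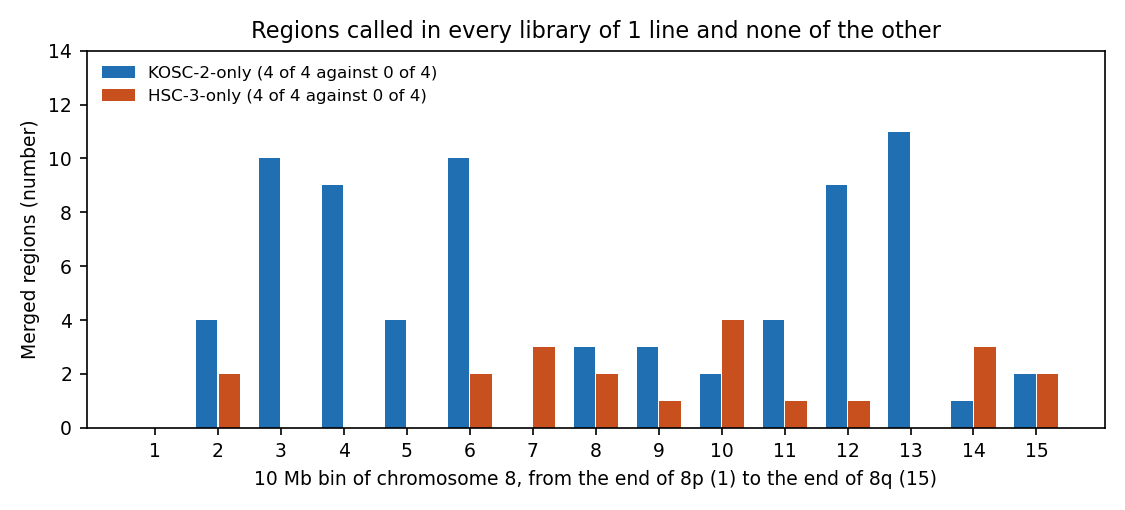
Number of regions called in all 4 libraries of one line and none of the other (vertical axis, by line) in each of the 15 bins of 10 Mb along chromosome 8 (horizontal axis). Bars start at 0. Of the 72 KOSC-2-only regions 48 are on 8q, and of the 21 HSC-3-only regions 19 are. The long arm holds 2688 of the 3783 merged regions of the chromosome.

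Irradiation was not followed by a detectable shift between the arms at 24 hours. Averaged over the lines, 8 Gy minus 0 Gy gave a log2 difference of 0.00 for the 8p share (SE 0.087, limma adjusted p = 0.988) and -0.01 for the 8q share (SE 0.040, limma adjusted p = 0.988). Exact permutation tests with doses exchanged within each line gave p = 1 and p = 0.556, and this design cannot go below 0.0556. The log2 ratio of 8q to 8p differed by -0.02 (exact permutation p = 0.611). None of the arms or bins of the genome passed in limma (0%), and 0 of the 15 bins of chromosome 8 reached an unadjusted p below 0.05. The difference in dose effect between lines was 0.01 on 8p and 0.00 on 8q (limma adjusted p = 0.966 for both), and likewise no arm or bin of the genome passed (0%).

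Regions called in both libraries of one dose and neither of the other were nevertheless present in each line. KOSC-2 had 140 gained regions on chromosome 8 (3.70%) and 31 lost ones (0.819%), against 3.51% and 0.87% of all merged regions. HSC-3 had 30 gained (0.793%) and 43 lost (1.14%), against 0.68% and 0.957%. These shares were near those of the whole genome. The counts also depend on the lists. KOSC-2 0 Gy replicate 1 had low enrichment (25.7) and 38234 peaks, against 51693 peaks in KOSC-2 8 Gy replicate 1. Each dose of HSC-3 held 1 short list, with 23490 peaks at 0 Gy and 22504 at 8 Gy. The part of list length and enrichment in these counts was not tested. The KOSC-2 gained regions of highest mean percentile began at 124297975, 47868575 and 77318186, and the lost ones at 130017380, 30560395 and 57015375. In HSC-3 the gained ones began at 56843084, 114058585 and 103140523, and the lost ones at 37898896, 67458614 and 56860844. These 12 regions had mean percentiles of 47.2 to 69.4, and 10 of them were also called in at least 1 library of the other line. The KOSC-2 gained region at 124297975, for example, had calls in 3 HSC-3 libraries.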

How the data were processed

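ATAC-seq was measured in 8 libraries, grouped by line and dose from the labels. Each has its own peak list on hg19. Per the submitters' processing notes, FastQC 0.11.7, Bowtie2 2.3.4.2, SAMtools 1.9, deepTools and MACS2 2.2.6 were used. How reads were shifted for Tn5, and what was done with duplicates and blacklisted regions, is not given in the sources used here. Every peak has, as deposited by the authors, a whole-number score, a fold enrichment at the summit (a ratio to the peak's local background), a −log10 p-value and a −log10 q-value. These values are the authors' and were used to rank or filter peaks within a list.

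Chromosomes 1 to 22 and X were kept, and 590 peaks on other sequences were left out. The share of an arm or 10 Mb bin was (peaks + 0.5) over (all peaks + 1). Log2 shares were fitted with limma 3.58.1 (R 4.3.3), with 1 mean per line and dose and a trend, over 41 arms or 301 bins with a mean of at least 10 peaks, and adjusted by Benjamini-Hochberg at 0.05. Single values were tested by exact two-sided permutation. Pileup and background were recovered by searching pileups from 2 to 400 that returned the deposited p within 0.0001, and depth is the genome-wide background under 300 bp fragments, expressed per 10 kb. Read totals are not used here, so no interval was computed from them.

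The regions named by rule were, on each arm, the 5 of highest mean percentile called in all libraries or in 1 line only, the 3 of highest percentile gained or lost in each line, and the longest line-only runs. Members and lists were chosen with earlier results of these data known, including the larger share of chromosome 8 in HSC-3, which is therefore not independent support. Promoters of listed genes and cell type markers were planned and are not analysed here, since they need gene positions on hg19. Same-numbered libraries deviated together with correlations from -0.37 to 0.32 over arms, so the numbers were not taken as pairs.

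Alternatives were lists cut to 22504 peaks, a minimum −log10 q of 5, bases covered, regions called in at least 2 libraries, a pseudocount of 2, centring on the median, no trend, 5 Mb bins, no peak minimum, a replicate block, 50% coverage, calls in at least 3 of 4 libraries, other background settings, and each library left out. Added after the data were seen were leaving out the 2 short or the 3 least enriched lists, the strongest peaks only, the ranks of common regions and a crossed block. Other steps ran in Python 3.11.15 (scipy 1.17.1, numpy 2.4.6, matplotlib 3.10.9, pandas 2.3.3), and the functions were tested on simulated data.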

Additional observations from a re-analysis of the deposited data

Results flagged for a closer look

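The background around 8p peaks relative to the median of the library was 0.894 in HSC-3 0 Gy replicate 2, against 0.840 to 0.847 in the other 3 HSC-3 libraries. This value stood apart from its group by Dixon's criterion. It was 1 of 44 sets of 4 libraries examined, and chance flags about 1 in 20 sets. The library is one of the 2 short lists.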

How the results depend on the processing

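The higher 8q share in HSC-3 and the higher rank of its common regions passed under all alternatives run. The 6 higher bins were within 1.5 times of this number except with 5 Mb bins (12 higher, 4 lower). Without the 2 short lists, the log2 ratio of 8q to 8p was 0.238, the 8q background 0.150, the 8p rank difference -4.30, the lower bins numbered 1 and the HSC-3-only regions 149. Without the 3 least enriched libraries the 8p share was 0.0026, the ratio 0.229, the 8p rank -3.43, the 8q dose difference 0.0018, the 8p difference in dose effect -0.011, and there were 186 HSC-3-only regions and 167 KOSC-2-only ones. For the ratio, these numbers of libraries cannot give an exact permutation p below 0.0667 and 0.1, the values reached. With lists of equal length the 8p share was -0.163, 1 bin was lower, the 8p dose difference was -0.014, and 28 and 41 regions were line-only. Asking for 3 of 4 libraries gave 192 and 70. Among peaks below the 50th percentile the background differences were 0.054 on 8p and 0.065 on 8q. The dose difference of 8p was -0.0061 by bases covered and -0.0011 in regions called in at least 2 libraries, where the 8q difference in dose effect was -0.0080, and the 8q dose difference was 0.0022 after centring on the median.

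With 1 library left out, the 8p share ranged from -0.249 to -0.089, and the log2 ratio from 0.357 to 0.485, with an exact permutation p of 0.0571 without any 1 KOSC-2 library, where 0.0286 could be reached. The lower bins numbered 1 or 2. Dose differences ranged from -0.078 to 0.081 on 8p and from -0.036 to 0.0070 on 8q, and differences in dose effect from -0.147 to 0.173 and from -0.039 to 0.046. The 8p background ranged from -0.045 to 0.021 and the 8p rank from -5.96 to -4.23. KOSC-2-only regions numbered 73 to 157 and HSC-3-only regions 21 to 47. Among bins, 275 of 300 settings kept direction and call. Bins 2, 5 and 6 ranged from -0.265 to 0.0042, from -0.029 to 0.101 and from -0.016 to 0.102 with 1 library left out. Bin 2 turned to 0.135 and 0.126 without the short and the least enriched lists, bin 6 to -0.075 and -0.060, and to -0.0078 when centred, bin 5 to -0.044 and -0.015 with equal lengths and centring, and bin 12 to 0.210 with equal lengths. The cause was not tested. With the replicate block the 8q share was 0.25 (limma adjusted p = 3.54e-06) with 6 bins higher and 2 lower, and the block changed no call, nor did the crossed numbers change these counts.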
